A study of Mus musculus with 4 samples.

Results

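Potassium channel genes were followed in epidermal cells of newborn mice in which the catalytic activity of the Polycomb repressive complex PRC1 had been removed. The members were chosen by gene symbol, as the rows of the count table that begin with Kcn, with the RNA Kcnq1ot1 left out. This gave 97 members among 24453 symbols. The family itself was picked with this I53A/CTL contrast known, so its share of changed genes is a description, from which nothing is read about the family as a whole. The I53A group had the genotype Ring1a-/- Ring1b-/I53A: both alleles of Ring1a (the gene Ring1) were lost, and Ring1b (the gene Rnf2) was present as a null allele paired with I53A, an allele that makes an enzyme without ubiquitin ligase activity. The CTL group is labelled control, without further detail on its alleles. Both groups were taken at postnatal day 0 from back skin, with cells sorted for EpCAM, Sca1 and a high level of α6-integrin, and each had 2 RNA-seq libraries. The design does not tell the I53A allele apart from the loss of Ring1 or the null Rnf2 allele, and no promoter or cell type that drives a deletion is given in the sources used here.

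Potassium channels let potassium ions leave or enter cells down their gradient, and so set the resting voltage of the membrane and the shape of electrical signals. Voltage-gated pore subunits open on depolarization, calcium- and sodium-activated pores open when those ions rise inside the cell, two-pore-domain channels leak at rest, and inward rectifiers pass potassium more readily into than out of the cell. Silent and auxiliary subunits form no working channel on their own and alter the pores that they join. PRC1 places ubiquitin on histone H2A and is known to hold developmental genes silent, often at promoters rich in CpG dinucleotides.

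Total counts were 15966412 and 21543385 in I53A replicates 1 and 2, and 17010432 and 15505018 in CTL replicates 1 and 2. Levels are given as CPM, the count of a gene scaled to the composition-corrected library size, and 3 counts correspond to 0.132 to 0.199 CPM. Ring1 had 2.54 and 2.91 CPM in I53A and 24.2 and 33.3 CPM in CTL, and Rnf2 had 58.9 and 59.1 CPM in I53A and 58.5 and 45.8 CPM in CTL. All 9 basal keratinocyte markers were tested and summed to 23856 and 21094 CPM in I53A and 30404 and 33961 CPM in CTL, with Krt15 called lower. Of that sum, Krt5 alone held 14040 and 11505 CPM in I53A and 17517 and 21216 CPM in CTL. Krt5, Krt14 and Col17a1 lay below CTL in both I53A libraries without a call. Epcam lay above CTL in both, also without a call, and Itga6, Itgb4, Trp63 and Ly6a overlapped between groups. I53A replicate 1 stood apart by sex: the X-linked RNA Xist had 173 and 136092 counts in I53A against 121977 and 126604 in CTL, and the Y-linked gene Ddx3y had 1868 and 2 counts in I53A against 2 and 1 in CTL. Without that library the 12 members called in the full fit kept their direction. In that fit the spread came from the CTL libraries alone, and the part of sex in the calls was not tested. The Xist and Ddx3y counts show that the 2 I53A libraries did not come from the same mouse. For CTL neither the labels nor these counts tell, so the spread between the CTL libraries, on which p-values also rest, may be technical.

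Among the 97 members, 51 had enough counts to be tested with edgeR's quasi-likelihood test, adjusted over all 14550 tested genes. At an adjusted p under 0.05, 10 members were called higher and 2 lower in I53A, and 39 were not called. Over all tested genes, 5.68% were called higher and 1.04% lower. A gene can pass the filter through the group in which it is high. The CTL libraries alone would have kept 32 of the 51 members, with 5 called higher and 2 lower, where 5.18% of the 13444 genes so kept were called higher and 1.12% lower. A further 17 members were kept only through I53A and 2 by neither group alone, and 6 of the 32 were kept only through CTL. Both I53A libraries were above both CTL libraries for 24 of the 51 members and below both for 7, where all tested genes gave 24.5% and 23.5%. The median log2 fold change was 0.53 over the 51 members and -0.01 over all tested genes, and it was 0.02 over the 32 members against -0.03 over the genes that CTL alone would keep. Of the other 46 members, 4 had 0 counts in every library (among them Kcna10, Kcnj1 and Kcnk15), 3 were antisense rows, and the 46 together summed to 8.53 and 13.7 CPM in I53A and 5.60 and 6.49 CPM in CTL.

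The promoters of 4 called members are shown because they are the 2 windows richest in CG dinucleotides among the higher members (Kcnma1, Kcnd3) and those of the neighbouring pair that was lower (Kcnj2, Kcnj16). Each runs from 250 bases before to 50 bases after a start site annotated by RefSeq on GRCm38.p6, is printed 5′ to 3′ on the gene's own strand, and has its CG dinucleotides in capitals.
Kcnma1: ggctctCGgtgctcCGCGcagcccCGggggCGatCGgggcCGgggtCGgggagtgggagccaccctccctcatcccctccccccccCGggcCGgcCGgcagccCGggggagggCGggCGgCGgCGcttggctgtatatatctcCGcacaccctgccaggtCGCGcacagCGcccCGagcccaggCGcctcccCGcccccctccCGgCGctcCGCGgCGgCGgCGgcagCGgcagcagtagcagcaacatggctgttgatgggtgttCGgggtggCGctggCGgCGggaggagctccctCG
Kcnd3: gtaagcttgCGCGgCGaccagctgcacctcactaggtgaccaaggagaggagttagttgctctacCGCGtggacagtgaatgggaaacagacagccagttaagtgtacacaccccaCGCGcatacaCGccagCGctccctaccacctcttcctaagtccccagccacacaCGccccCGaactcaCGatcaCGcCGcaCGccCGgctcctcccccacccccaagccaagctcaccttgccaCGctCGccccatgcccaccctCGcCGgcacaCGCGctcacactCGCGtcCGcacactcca
Kcnj2: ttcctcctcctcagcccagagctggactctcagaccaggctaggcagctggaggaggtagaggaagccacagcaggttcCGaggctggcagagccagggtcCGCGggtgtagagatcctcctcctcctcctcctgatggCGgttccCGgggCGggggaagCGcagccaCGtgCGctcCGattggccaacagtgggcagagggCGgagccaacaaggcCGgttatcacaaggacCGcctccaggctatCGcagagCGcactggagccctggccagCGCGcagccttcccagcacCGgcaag
Kcnj16: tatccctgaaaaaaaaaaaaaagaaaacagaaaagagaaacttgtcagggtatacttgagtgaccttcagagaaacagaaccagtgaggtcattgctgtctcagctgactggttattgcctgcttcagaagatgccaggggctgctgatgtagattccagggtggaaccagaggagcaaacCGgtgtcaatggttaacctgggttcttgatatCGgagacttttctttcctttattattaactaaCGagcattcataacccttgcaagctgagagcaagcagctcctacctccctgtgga
These windows held 36 CG dinucleotides in Kcnma1 (chr14:24004156-24004455, minus strand), 25 in Kcnd3 (chr3:105451640-105451939, plus strand), 18 in Kcnj2 (chr11:111065914-111066213, plus strand) and 3 in Kcnj16 (chr11:110967783-110968082, plus strand). Kcnj16 had other annotated starts, and its window with the most CG dinucleotides held 8. A RefSeq promoter was matched by symbol for 71 of the 97 members (73.2%). Taking each gene's window with the most CG dinucleotides, the median was 20 over the 7 higher members with a promoter, ranging from 10 in Kcnk1 to 36 in Kcnma1. It was 13 over the 2 lower members, 14 over 28 members not called, 11 over 34 members not tested and 21 over 11174 tested genes. The higher members with a promoter thus lay close to the tested genes at large. The letters TATAAA, searched on both strands, were in 5 of 96 member promoters (5.21%) and in 13.6% of 32851 promoters of the same length. A match or its lack describes these letters in this window only.

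Voltage-gated pore subunits held 6 of the 10 higher members, of which 4 are described one by one. Of 30 such genes, 15 were tested, 6 were called higher and 9 were not called, with a median log2 fold change of 1.94 over the 15. Of the 15, 8 passed the filter only through I53A. CTL alone would have kept 7, with 3 called higher and a median of 1.66. The summed level of the 30 was 139 and 135 CPM in I53A, against 27.7 and 34.6 CPM in CTL. Both I53A libraries were above both CTL libraries for 11 of the 15, where all tested genes gave 24.5%. That count includes members kept only through I53A and was not made apart for the 7.

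Kcna1, which encodes the Kv1.1 pore that damps firing in axons, had 58.9 and 46.1 CPM in I53A and 1.25 and 2.19 CPM in CTL. The groups lay far apart, and the log2 fold change was 4.94 ± 0.31 (SE, adjusted p = 2.52e-05). On the plot of single libraries it is the most abundant of the called voltage-gated members in I53A while its CTL levels are close to the axis. Kcna1 lies on chromosome 6 between Kcna5 and Kcna6, which were not tested. Kcna5 had 19 and 6 counts in I53A and 0 and 3 in CTL, and Kcna6 had 4 and 37 counts in I53A and 0 and 7 in CTL. For Kcna6 the groups overlapped.

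Kcnd3 encodes the Kv4.3 pore of fast-inactivating A-type current. It had 9.42 and 11.5 CPM in I53A and 0.476 and 0.861 CPM in CTL, a log2 fold change of 3.98 ± 0.49 (SE) at an adjusted p of 0.00104. Kcnip1 encodes a calcium-binding auxiliary subunit (KChIP1) that joins Kv4 pores. It had 70 and 236 counts in I53A, or 4.45 and 10.4 CPM, and 0 counts in both CTL libraries. Its summed level was at least 84.7-fold higher in I53A against a floor of 3 counts over the CTL group, and the adjusted p was 0.00431. I53A replicate 2 held the larger share of its reads, and the fitted fold change of Kcnip1 depends on the prior count and is not a bound. The other Kv4 pores and Kcnip partners showed no call. Kcnd1 had 1.15 and 1.498 CPM in I53A and 1.67 and 0.596 CPM in CTL, Kcnd2 had 10 counts over the I53A group and 1 over CTL and was not tested, and the partners Kcnip2, Kcnip3 and Kcnip4 had adjusted p of 0.528, 0.527 and 0.969. Dpp6 and Dpp10, channel partners outside the family, were not tested. Dpp6 had 6 and 39 counts in I53A and 0 and 2 in CTL, and Dpp10 had 2 and 7 in I53A and 1 and 2 in CTL.

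Among other voltage-gated pores, Kcnb2 had 2.54 and 1.85 CPM in I53A and 0.298 and 0.596 CPM in CTL and was not called (adjusted p = 0.0950), and Kcnc4 had 1.08 and 1.15 CPM in I53A and 0.417 and 0 CPM in CTL (adjusted p = 0.253). Kcnq5, a Kv7 pore that carries M-type current, had 4.64 and 3.17 CPM in I53A and 0.536 and 0.0663 CPM in CTL. Its log2 fold change was 3.58 ± 0.75 (SE, adjusted p = 0.0162), with the call lost without CTL replicate 1 (0.0751) or CTL replicate 2 (0.174) and in limma-voom (0.0574). Kcnh7 encodes a pore of the ether-a-go-go family and had 4.96 and 7.36 CPM in I53A and 1.01 and 0.795 CPM in CTL. Its log2 fold change was 2.78 ± 0.52 (SE, adjusted p = 0.00952), and without CTL replicate 1 or CTL replicate 2 the adjusted p was 0.0976 or 0.109. In the annotation 4.57% of the Kcnh7 exons overlap Gca on the opposite strand, and the strand setting of the counts is not given in the sources used here. Gca was not called, with 10.8 and 16.4 CPM in I53A and 10.9 and 14.1 CPM in CTL. The related Kcnh2 and Kcnh3 lay above CTL in both I53A libraries without passing the test (adjusted p = 0.108 and 0.0619). Kcnh2 was called without I53A replicate 1 (0.0275). Kcnh3 was called without I53A replicate 2 (0.00738), by DESeq2 (0.0150) and without the count filter (0.0340).

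**Figure D1:**
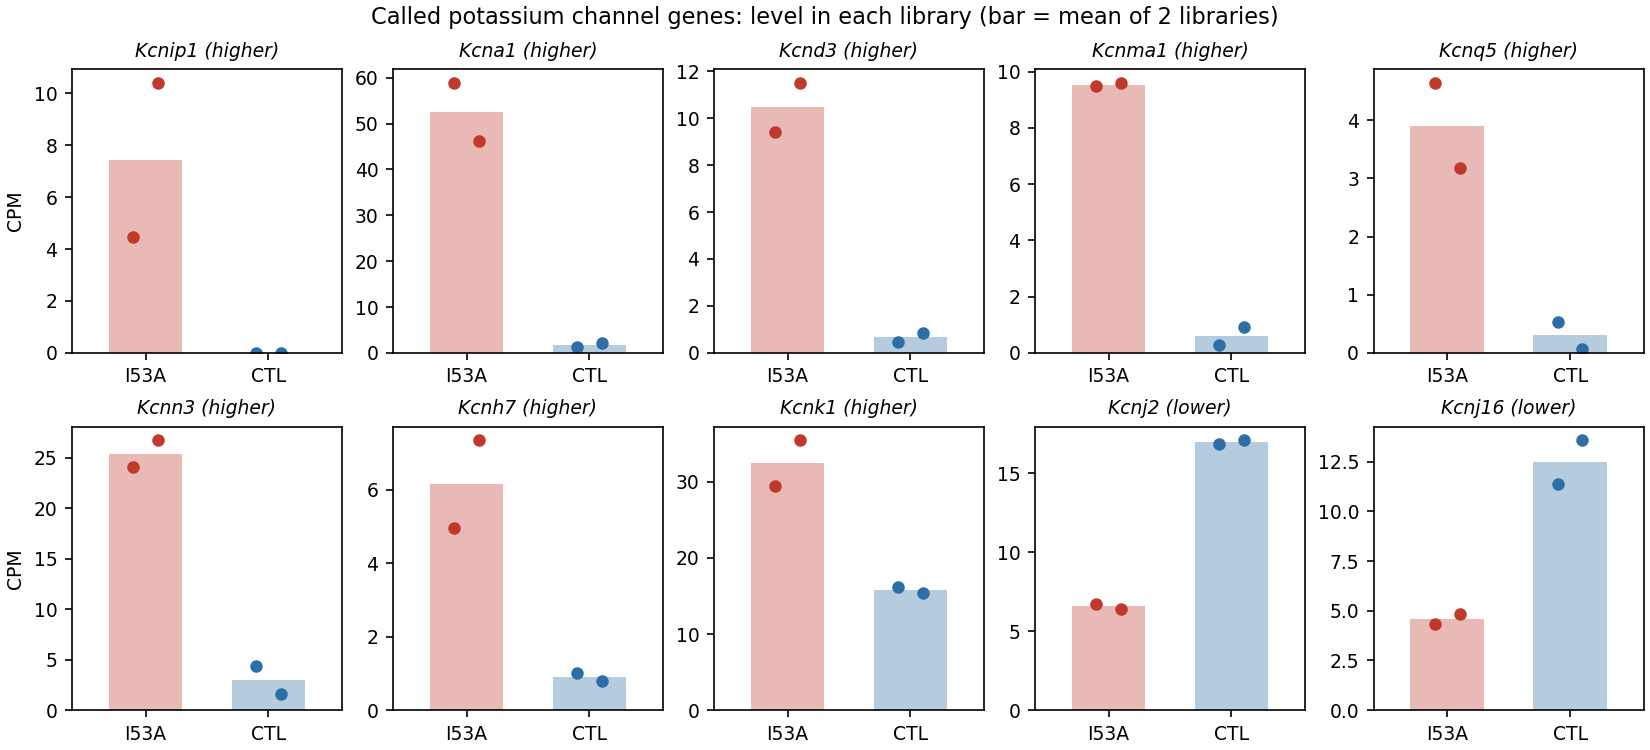
Level of 10 of the 12 called potassium channel genes in CPM (vertical axis, from 0, scaled for each gene), with I53A left of CTL. Points are the 2 libraries of a group and bars their mean. For all 10 genes drawn the points of the groups do not overlap, and Kcnip1 sits at 0 in both CTL libraries.

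The electrically silent voltage-gated subunits, which assemble with Kv2 pores, gave no call. Of 10 genes 4 were tested and 0 were called by edgeR, while 2 had an unadjusted p under 0.05 and DESeq2 called 1, Kcng3. Kcng3 was just outside the threshold, with 3.44 and 2.38 CPM in I53A and 0.655 and 0.199 CPM in CTL, a log2 fold change of 2.67 ± 0.70 (SE) at an adjusted p of 0.0506. Kcng3 was called by edgeR with RLE scaling (adjusted p = 0.0483) but not by limma-voom (0.101). With single libraries left out, its log2 fold change ranged from 2.11 to 3.80. Kcns3, the most abundant silent subunit, had 12.47 and 11.99 CPM in I53A and 5.36 and 6.89 CPM in CTL and was not called (adjusted p = 0.0811).

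Calcium-activated pores held 2 of the higher members. Of 8 calcium- and sodium-activated channel genes 5 were tested, 2 were called higher and 3 were not called. CTL alone would have kept 3 of the 5, with 1 called higher. The summed level of the 8 was 40.8 and 45.0 CPM in I53A, against 9.70 and 9.81 CPM in CTL. Kcnma1 encodes the large-conductance BK pore, opened by voltage and calcium together. It had 9.48 and 9.61 CPM in I53A and 0.298 and 0.928 CPM in CTL, a log2 fold change of 3.98 ± 0.52 (SE) at an adjusted p of 0.00136. The I53A libraries were nearly level with each other and well above both CTL libraries. In the annotation 5.98% of its exons overlap the opposite-strand RNA 4930519K11Rik, which had 0 counts in every library.

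Kcnn3 encodes the small-conductance SK3 pore, which is opened by calcium through calmodulin. It had 24.1 and 26.8 CPM in I53A and 4.35 and 1.59 CPM in CTL, a log2 fold change of 3.07 ± 0.36 (SE) at an adjusted p of 0.000809. Kcnn1 did not separate the groups, with 2.29 and 2.78 CPM in I53A and 1.49 and 3.84 CPM in CTL. Kcnt2, the most abundant sodium-activated member, had 2.99 and 2.29 CPM in I53A and 1.67 and 1.59 CPM in CTL and was not called (adjusted p = 0.568). Kcnn4, the intermediate-conductance pore known from blood cells and epithelia, was not tested and had 5 and 46 counts in I53A and 9 and 9 in CTL.

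No auxiliary subunit of the BK pore was called. Kcnmb1 had 2 and 49 counts in I53A and 50 and 18 in CTL, Kcnmb4 had 8 and 30 in I53A and 18 and 12 in CTL, and Kcnmb2 and Kcnmb3 were not tested. In both tested genes the groups overlapped, with adjusted p of 0.730 and 0.981. Kcnmb1 lies within the span of Kcnip1 on the opposite strand of chromosome 11, and their exons do not overlap.

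Across all auxiliary subunits, 12 of 17 were tested, 1 was called higher (Kcnip1) and 11 were not called. Their median log2 fold change was 0.00, and it was -0.43 over the 9 that CTL alone would have kept, among which none was called. Summed levels overlapped at 38.0 and 52.4 CPM in I53A and 43.2 and 30.5 CPM in CTL. Kcne4, a single-span subunit that dampens Kv1 and Kv7 currents in expression systems, had 3.88 and 3.97 CPM in I53A and 8.27 and 3.11 CPM in CTL. The CTL libraries differed more from each other than from I53A, and its log2 fold change of -0.56 ± 0.47 (SE) at an adjusted p of 0.623 was 0.33 without CTL replicate 1. Among the Kv1 beta subunits, Kcnab3 had 6.36 and 7.71 CPM in I53A and 3.21 and 3.18 CPM in CTL (adjusted p = 0.107), and Kcnab2 had 0.254 and 2.60 CPM in I53A and 2.44 and 3.25 CPM in CTL (adjusted p = 0.620, and 0.0441 without I53A replicate 2).

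Some members had reads mainly in I53A replicate 2. Kcnab2, Kcnmb1, Kcnn4, Kcng1, Kcnj11 and Kcna3 had 4, 2, 5, 0, 2 and 1 counts in I53A replicate 1 and 59, 49, 46, 24, 25 and 13 in I53A replicate 2. Immune cell markers also differed between libraries of 1 group, with a summed level of 139 and 326 CPM in I53A and 142 and 292 CPM in CTL. Of that sum, Cd74 alone held 108 and 276 CPM in I53A and 120 and 267 CPM in CTL. The part of immune cell markers in the counts of these members was not tested.

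**Figure D2:**
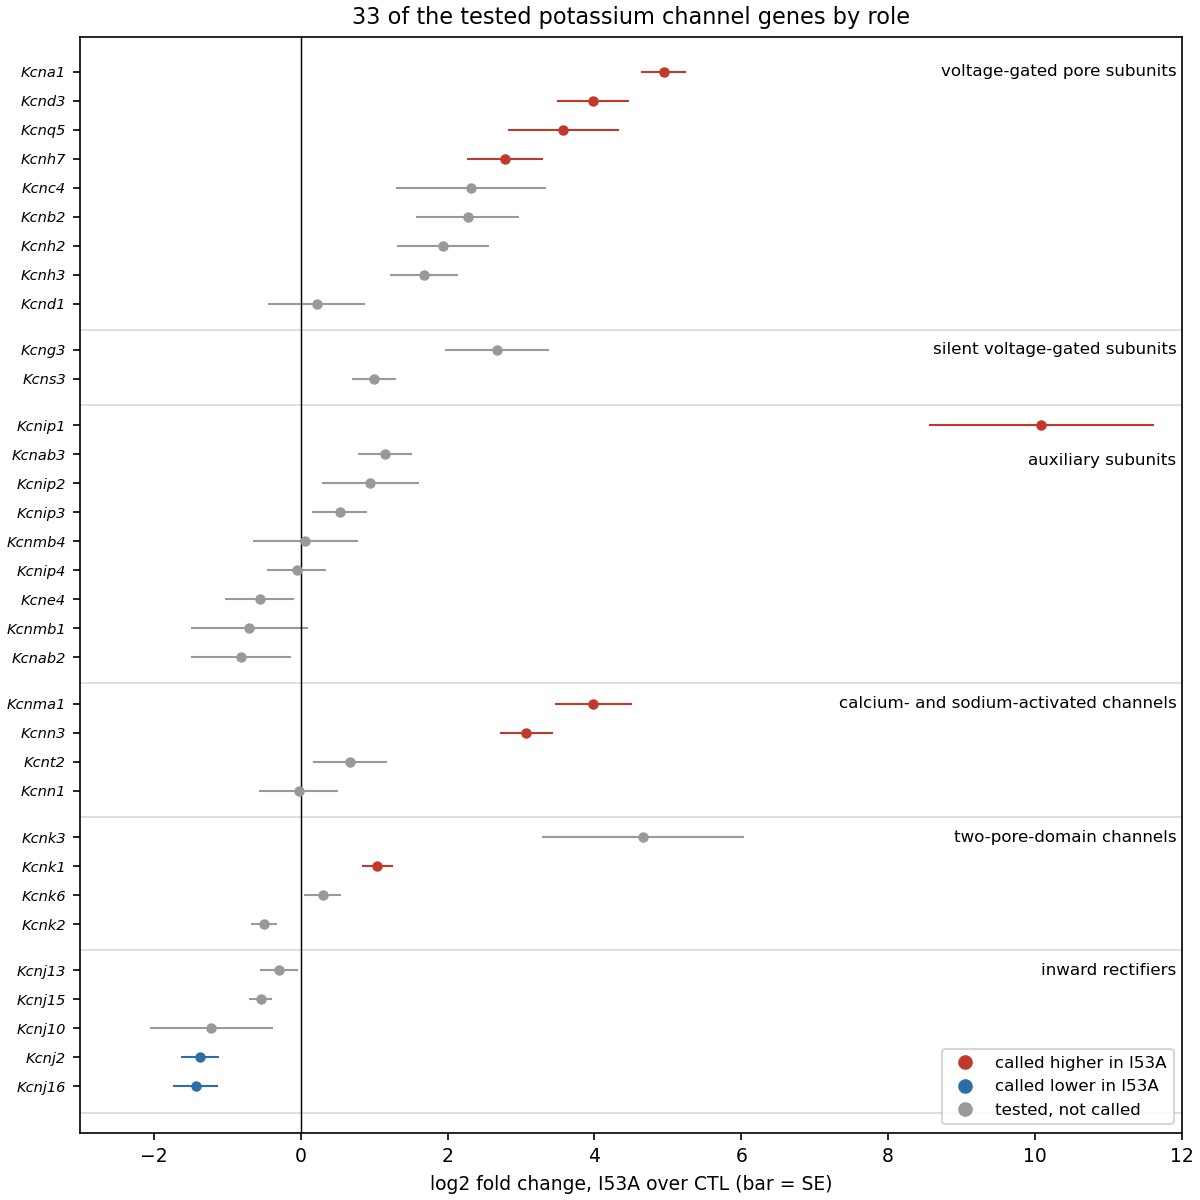
Log2 fold change, I53A over CTL (horizontal axis), of the 33 tested members named in the text, grouped by role, with bars of 1 SE. Red points are 8 members called higher, blue points the 2 called lower and grey points 23 not called, and the fitted value of Kcnip1, with 0 CTL counts, is not a bound.

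Two-pore-domain channels, which carry background leak, were present at similar summed levels, 95.2 and 93.7 CPM in I53A and 87.6 and 86.6 CPM in CTL. Of 14 genes 7 were tested, 1 was called higher and 6 were not called, with a median log2 fold change of 0.30. Kcnk1, which encodes the weakly conducting TWIK-1 channel, had 29.4 and 35.5 CPM in I53A and 16.1 and 15.4 CPM in CTL. The log2 fold change of 1.04 ± 0.21 (SE) at an adjusted p of 0.0139 was the smallest among the 10 higher members, and the call was lost without CTL replicate 1 (0.158) or CTL replicate 2 (0.180).

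Kcnk2, the stretch- and lipid-sensitive TREK-1 channel, had 33.3 and 29.0 CPM in I53A and 45.8 and 42.1 CPM in CTL. Both I53A libraries were below both CTL libraries, yet the log2 fold change of -0.50 ± 0.18 (SE) did not pass the test (adjusted p = 0.148). With offsets for GC content and length it was -0.68 with an adjusted p of 0.0424. Kcnk6 (TWIK-2) overlapped between groups, at 21.4 and 16.0 CPM in I53A and 13.6 and 16.5 CPM in CTL (adjusted p = 0.614). Kcnk3 had 15 and 22 counts in I53A and 1 and 0 in CTL, a ratio of 30.7 with a 95% counting interval of 5.18 to 1246, and was not called (adjusted p = 0.0799, and 0.0492 without I53A replicate 1).

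Inward rectifiers held both lower members. Of 15 genes 8 were tested, 2 were called lower and 6 were not called, with a median log2 fold change of -0.49. Their summed level was 120 and 111 CPM in I53A, below both CTL libraries at 160 and 191 CPM. Kcnj15 (Kir4.2) made up most of that sum. It had 90.9 and 82.2 CPM in I53A and 115 and 137 CPM in CTL, and its log2 fold change of -0.55 ± 0.15 (SE) at an adjusted p of 0.0663 did not pass the test. Kcnj15 did pass with offsets for GC content and length, at -0.67 with an adjusted p of 0.0213, where the median of all genes also shifted by -0.122. DESeq2 called it too (adjusted p = 0.0380), while limma-voom (0.0769) and edgeR with RLE scaling (0.0638) did not. With single libraries left out, its log2 fold change ranged from -0.67 to -0.42.

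Kcnj2 encodes Kir2.1, a strong inward rectifier that holds the resting voltage in muscle and other cells. It had 6.74 and 6.39 CPM in I53A and 16.8 and 17.1 CPM in CTL, a log2 fold change of -1.37 ± 0.26 (SE) at an adjusted p of 0.0108. Replicates were close and the groups did not overlap, but the adjusted p was 0.127 without CTL replicate 1 and 0.123 without CTL replicate 2. Kcnj16 encodes Kir5.1, which forms pH-sensitive channels with Kir4 subunits. It had 4.33 and 4.85 CPM in I53A and 11.4 and 13.6 CPM in CTL, a log2 fold change of -1.43 ± 0.31 (SE) at an adjusted p of 0.0192, with adjusted p of 0.118 and 0.213 without CTL replicate 1 and 2.

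Kcnj16 and Kcnj2 are neighbours on chromosome 11, both on the plus strand, with 38.2 kb between them. The next tested gene upstream of the pair, Map2k6, was chosen for mention after its values were seen. It encodes a kinase that activates p38 and was called lower, with 15.0 and 17.2 CPM in I53A and 45.1 and 34.5 CPM in CTL, a log2 fold change of -1.30 ± 0.21 (SE) at an adjusted p of 0.00487. The next tested gene downstream, Sox9, lies 1705 kb beyond Kcnj2. Sox9 was not called, with 268 and 175 CPM in I53A and 145 and 125 CPM in CTL (adjusted p = 0.0629). The promoter windows shown above differ within the pair, with 18 CG dinucleotides in Kcnj2 and 3 in Kcnj16.

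Skeletal muscle markers also summed lower, at 9.35 and 10.1 CPM in I53A and 16.4 and 18.1 CPM in CTL, with 1 of 5 tested called lower (Myh4, at 0 in both I53A libraries). Ttn held the largest share of that sum in each library and overlapped between groups (adjusted p = 0.580), as did Acta1 and Myh1. Tnnt3 lay below CTL in both I53A libraries without a call (adjusted p = 0.0549). Myh8 lay below CTL in both as well, and Ckm, Myh3 and Des overlapped between groups. Myh8, Ckm, Myh3 and Des were not tested. The part of skeletal muscle markers in the levels of Kcnj2 was not tested. Kcnj13 (Kir7.1) had 12.7 and 11.8 CPM in I53A and 12.9 and 17.2 CPM in CTL and was not called (adjusted p = 0.633), and 49.1% of its exons overlap Gigyf2 on the opposite strand, where reads of the 2 genes cannot be told apart without strand. Kcnj10, the Kir4.1 partner of Kir5.1, had 2 and 14 counts in I53A and 14 and 17 in CTL (adjusted p = 0.519).

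**Figure D3:**
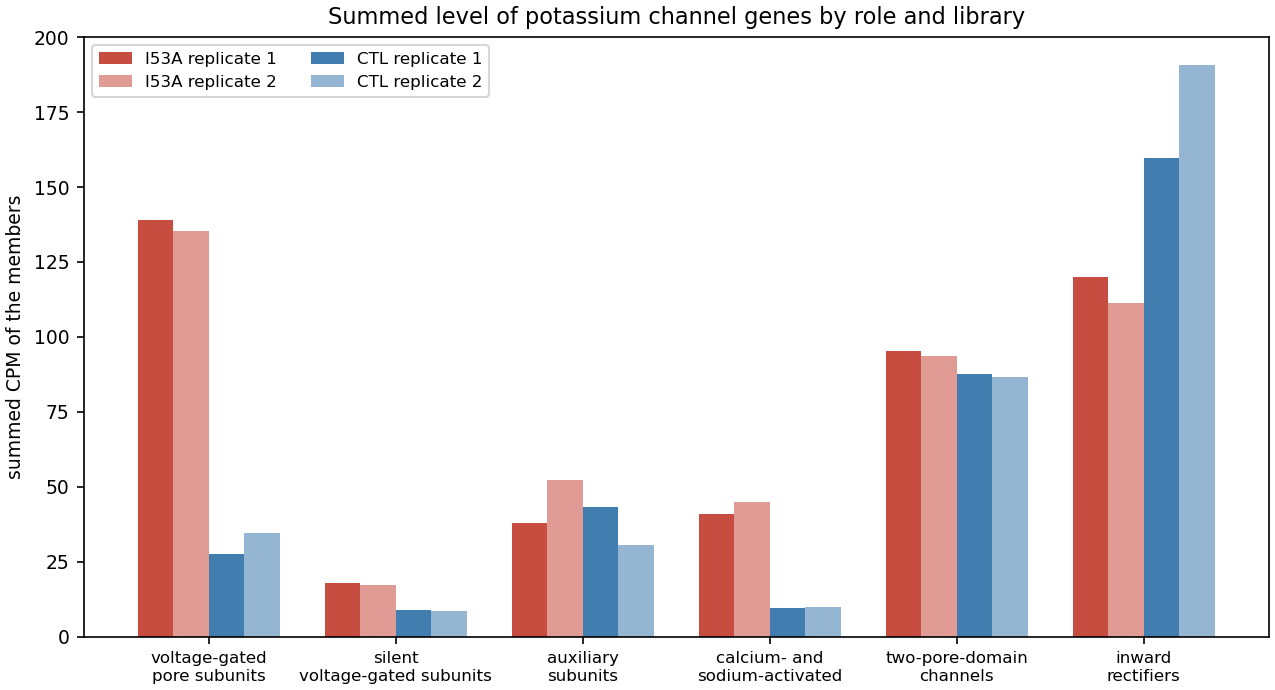
Summed CPM (vertical axis, from 0) of all members of each role in the 4 libraries, I53A in red and CTL in blue. Voltage-gated pores and calcium- and sodium-activated channels stand higher in both I53A libraries, inward rectifiers lower, and two-pore-domain channels near level.

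Compared per kilobase of exon, the order of the family differed between groups. In I53A the 5 highest members were Kcnk1 with 14.5, Kcnj15 with 13.7, Kcna1 with 10.99, Kcnj13 with 9.66 and Kcnk2 with 6.30 CPM per kb. Kcnk1 overlapped with Kcnj15 over their libraries, and Kcna1 with Kcnj13. In CTL the 5 highest were Kcnj15 with 20.0, Kcnj13 with 11.9, Kcnk2 with 8.89, Kcnk1 with 7.06 and Kcnk6 with 3.63 CPM per kb, with no overlap between neighbours in this order, and Kcna1 had 0.360 CPM per kb. The place of Kcnj13 is uncertain in both groups, since 49.1% of its exons overlap Gigyf2 and the strand setting is not given. Gigyf2 had 212 and 213 CPM in I53A and 269 and 241 CPM in CTL. Summed over the 97 members, the level was 451 and 456 CPM in I53A and 337 and 361 CPM in CTL. Members at 1 CPM or more numbered 43 and 50 in I53A and 32 and 31 in CTL.

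**Figure D4:**
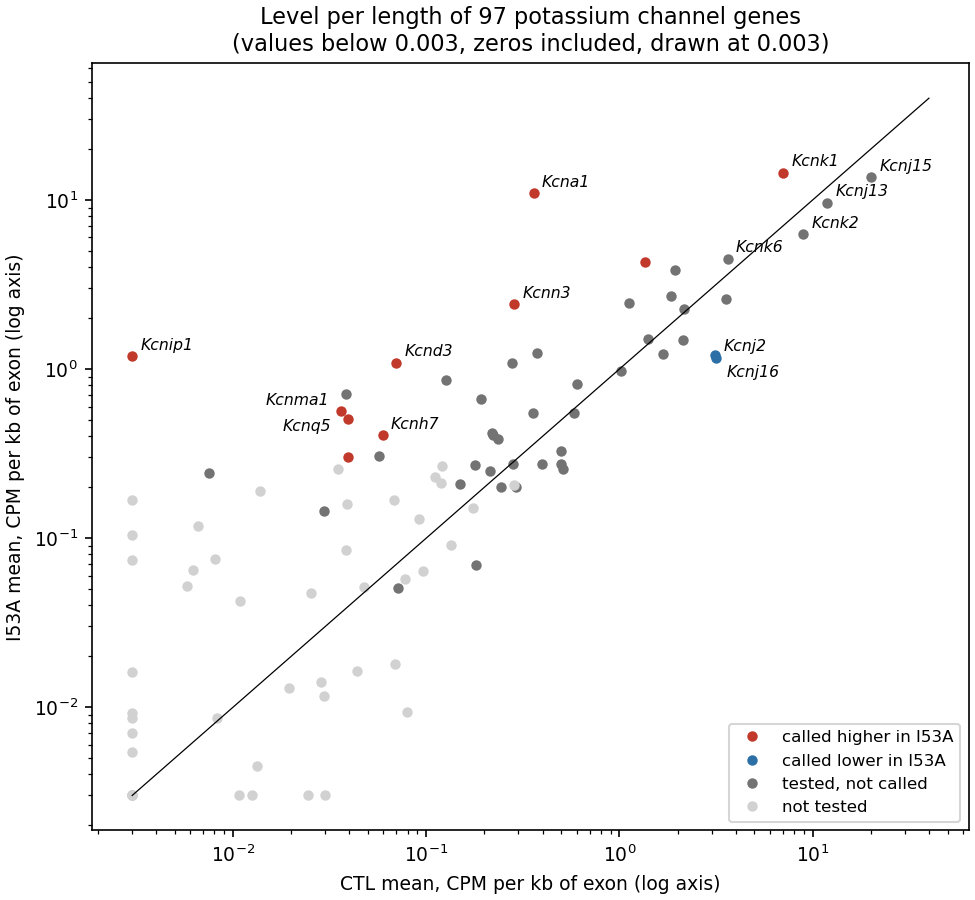
Mean level of each of the 97 members in I53A (vertical) and CTL (horizontal), in CPM per kb of exon on log axes, with the line of equal level. Kcna1, Kcnn3, Kcnd3 and Kcnip1 lie far above the line, Kcnj2 and Kcnj16 below it, and Kcnk1 and Kcnj15 are among the highest of the family in both groups.

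Genes that work with these channels were read from 2 further lists. Of 16 channel partners outside the family 6 were tested, 1 was called higher and 5 were not called. The called one was Abcc8, the sulfonylurea receptor of the ATP-sensitive channel, with 16.9 and 15.2 CPM in I53A and 0.298 and 0.133 CPM in CTL, a log2 fold change of 6.14 ± 0.52 (SE) at an adjusted p of 8.29e-05. Its pore partner Kcnj11 lies 3.758 kb from it on chromosome 7 and was not tested. Kcnj11 had 2 and 25 counts in I53A and 0 counts in both CTL libraries, at least 7.47-fold higher against a floor of 3 counts over the CTL group, and nearly all of its reads came from I53A replicate 2.

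Of 25 potassium pumps and cotransporters 16 were tested, 1 was called higher, 1 lower and 14 were not called. Beta subunits of the sodium pump were called in both directions. Atp1b1 had 31.5 and 36.1 CPM in I53A and 11.4 and 12.1 CPM in CTL, a log2 fold change of 1.53 ± 0.21 (SE) at an adjusted p of 0.00191. Atp1b3 had 96.8 and 99.9 CPM in I53A and 195 and 168 CPM in CTL, a log2 fold change of -0.89 ± 0.14 (SE) at an adjusted p of 0.00465. Without CTL replicate 1 their adjusted p were 0.0546 and 0.120.

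Several of the higher members are best known from nerve cells, so markers of other cells are given beside them. The 13 neuron markers summed to 29.9 and 22.9 CPM in I53A and 8.04 and 10.3 CPM in CTL, of which Map2 alone held 22.9 and 17.5 CPM in I53A and 5.65 and 7.29 CPM in CTL. Map2 was the 1 called of the 3 tested. The other tested ones, Rbfox3 and Snap25, were above CTL in both I53A libraries without passing the test. Rbfox3 had 3.37 and 2.42 CPM in I53A and 0.893 and 0.464 CPM in CTL (adjusted p = 0.0907), and Snap25 had 1.78 and 1.37 CPM in I53A and 0.357 and 0.795 CPM in CTL (adjusted p = 0.324). Nefl was at 0 in every library, and Tubb3, Elavl4, Stmn2 and Nefm were each at or below 0.309 CPM. Syt1 had 2 and 7 counts in I53A and 1 and 19 in CTL, and Prph had 1 and 1 in I53A and 10 and 0 in CTL. Isl1 went the other way, with 18 and 8 counts in I53A and 4 and 0 in CTL. Syt1, Prph and Isl1 were not tested. Schwann cell markers summed to 125 and 96.4 CPM in I53A and 90.7 and 85.9 CPM in CTL. Melanocyte markers summed to 29.2 and 23.1 CPM in I53A and 18.9 and 26.0 CPM in CTL. Merkel cell markers summed to 28.6 and 24.4 CPM in I53A and 17.7 and 9.48 CPM in CTL. Of the Merkel sum, Piezo2 alone held 23.7 and 18.4 CPM in I53A and 8.39 and 6.96 CPM in CTL. Krt8 went the other way, with 0.191 and 0.661 CPM in I53A and 3.57 and 1.33 CPM in CTL, and was not called. Atoh1 lay above CTL in both I53A libraries without a call, and Krt18 overlapped between groups. Rab3c had 25 and 3 counts in I53A, Krt20 had 5 and 1, and Sox2 had 1 and 5, each with 0 counts in both CTL libraries. These were not tested, and Isl1, given above, is also on the Merkel list. Pericyte and vessel markers summed to 233 and 189 CPM in I53A and 97.6 and 111 CPM in CTL. Of that sum, Cspg4 alone held 192 and 138 CPM in I53A and 68.8 and 68.8 CPM in CTL. Pdgfrb and Tek lay above CTL in both I53A libraries without a call, and the remaining pericyte and vessel markers overlapped between groups. Fibroblast markers summed to 2192 and 1995 CPM in I53A and 1495 and 1555 CPM in CTL. Hair follicle markers summed to 1290 and 1287 CPM in I53A and 844 and 916 CPM in CTL. Called higher among these lists were Mbp (1 of 7 tested Schwann markers), Piezo2 (1 of 4 Merkel), Cspg4 (1 of 9 pericyte and vessel), Dcn (1 of 8 fibroblast), and Lhx2 and Cux1 (2 of 7 hair follicle). Their part in the channel results was not tested, and in bulk samples fewer cells of a type and less RNA per cell cannot be told apart.

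Of the 12 called members, 5 were called under all 12 alternatives to the test, filter, scaling and set of libraries: Kcna1, Kcnd3, Kcnip1, Kcnma1 and Kcnn3. Offsets for GC content and length shifted the median of all genes by -0.122 on the log2 scale. With the offsets the median log2 fold change was 0.36 over the members and -0.14 over all genes. Calls over all genes were then 718 higher and 600 lower (54.5% higher), against 826 and 151 (84.5% higher) without offsets. For the members they were 10 higher and 4 lower (71.4% higher), against 10 and 2 (83.3% higher).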

How the data were processed

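Per the labels' protocols, 10 ng of total RNA from sorted cells was turned into amplified cDNA (Ovation RNA-seq System V2) and sequenced as single reads of 100 nucleotides. Tools named in the submitters' processing notes are HTSeq 0.6.1, TopHat2 2.0.13, DESeq2 1.6.3 and Cufflinks 2.2.1, with the build mm10. The annotation, the counter and the strand setting were not given in the sources used here. Raw counts were what the authors deposited: whole-number counts per gene symbol, one table for each of the 4 libraries. Groups and replicate numbers came from the sample labels.

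Genes were filtered with filterByExpr (minimum count 10, minimum total 15), scaled with TMM and tested with edgeR 4.0.16 (glmQLFit, glmQLFTest) in R 4.3.3, I53A over CTL, two-sided, without a block, at a Benjamini-Hochberg adjusted p under 0.05 over 14550 genes. CPM are counts over the scaled library size, and the SE of a fold change is its size over the root of F. The fit was tested on simulated counts. With 0 CTL counts the fold is a bound against 3 counts over CTL, and with 1 to 3 CTL counts the ratio has an exact 95% interval. Both cover counting error only, since reads carry no molecular identifiers. Exon lengths, positions and overlaps came from GENCODE M21 on GRCm38, matched for all 97 members and 98.5% of symbols.

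The members and lists were chosen with earlier results of these data known. Named are every called member, the 6 members of highest level per kilobase, the most abundant tested member of each other subfamily letter with at least 2 tested, Ring1, Rnf2 and called genes of the partner and pump lists. Further genes in the text were picked with their values in view. Some genes that this rule names are not reported here, though they remain in the counts, medians and sums. Alternatives were RLE scaling, limma-voom (limma 3.58.1), DESeq2 1.42.0, no filter, at least 1 CPM in 2 libraries, loess offsets (span 0.5) for GC content and length, the replicate number as a block, both together, and each library left out in turn. Where 1 library of a group was left, it was assumed to vary like the other group.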

Additional observations from a re-analysis of the deposited data

How the results depend on the processing

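Every called member kept its direction in the 12 alternatives, while members that were not called could turn. Among these, Kcne4 ranged over -1.07 to 0.33 when single libraries were left out (0.33 without CTL replicate 1). Kcnd1, at 0.22 with all libraries, was at -0.31 without CTL replicate 2, -0.02 without I53A replicate 2 and -0.01 with offsets for GC content and length. Kcnip4, Kcnmb1, Kcnmb4 and Kcnn1 also turned in at least 1 alternative. Leaving out each library in turn gave 5 to 13 higher and 0 to 3 lower potassium channel genes, and 258 to 1131 higher and 34 to 389 lower genes in all. The 0 arose without CTL replicate 1 and without CTL replicate 2, where 3 members each were lower at an unadjusted p under 0.05 in edgeR, and DESeq2 and limma-voom called 3 and 2 lower members with all libraries. Without CTL replicate 1 the members called were 5 higher (258 higher and 39 lower in all), without CTL replicate 2 they were 6 higher (292 and 34), without I53A replicate 1 they were 12 higher and 3 lower (1122 and 367), and without I53A replicate 2 they were 13 higher and 3 lower (1131 and 389). The degrees of freedom fell alike in all of these fits. Without a CTL library the spread came from the I53A libraries alone, and without an I53A library from the CTL libraries alone. How far this shifted the counts of calls was not tested. DESeq2 called 232 lower genes in all. Offsets for GC content and length gave 600 lower genes in all and 4 lower members, adding Kcnj15 and Kcnk2, with a median log2 fold change of the members of 0.36. The replicate number as a block gave 12 higher and 3 lower members, adding Kcng3, Kcnh3 and Kcnj15, with 1042 higher and 232 lower genes in all, and block and offsets together gave 17 higher and 4 lower members and 1088 lower genes in all. Deviations of same-numbered libraries correlated at 0.041, and the samples were not treated as pairs in the main fit. With 2 libraries in each group, this value cannot tell whether same-numbered libraries share a batch. The cause of these shifts was not tested. Members below about 1 CPM rest on few counts. The count filter left out 46 members, and without it 93 of the 97 were tested, with 12 higher and 2 lower.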
